A study of Danio rerio with 45 samples.

Results

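Solute carriers are the membrane proteins that move ions, amino acids, sugars, metals, nucleotides and vitamins across the plasma membrane and the membranes of mitochondria, lysosomes and the Golgi, and their messenger RNAs were followed here along the animal-vegetal axis of the early zebrafish embryo. Members were the rows of the deposited count table whose symbol, without a trailing copy number, begins with slc and a digit. A total of 205 of the 12670 rows met this rule, and they carry 190 distinct symbols. Of these symbols 15 have more than 1 row, and 2 of the rows, slc4a1ap and slc7a6os, are named after a carrier and encode no transporter. The other 203 rows are carrier genes.

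Zebrafish (Danio rerio) embryos at 1, 2 and 3 hours post fertilisation (hpf), which are about 4, 64 and 1000 cells per the labels, were cut into 5 sections from A at the animal end to E at the vegetal end, and the RNA of each section was sequenced (TOMO-seq). The labels name no genotype, strain or treatment and do not state how many embryos make a sample. Each replicate number is a biological replicate of 5 sections, and the table holds 40 libraries, from 3 such samples at 1 hpf, 2 at the next stage and 3 at the last. The third sample of 2 hpf is not analysed here, because no column of the table belongs to it. Each library was made from 20 ng of RNA, so a value gives the fraction of a section's RNA and says nothing of the amount in the embryo.

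A zebrafish egg is loaded with maternal transcripts before fertilisation, and the embryo relies on them until its own genome is switched on around the last of these stages. Cytoplasm streams toward the animal pole to form the cells, while the yolk stays at the vegetal side. Carriers set cell volume, pH and the amino acid and metal supply of those cells, and many act in pairs that load and unload the same ion. The roles named below are mostly those of the mammalian proteins.

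The libraries of 1 hpf held 1466522 to 6428496 counts, those of 2 hpf 1466266 to 6566549, and those of 3 hpf 1355607 to 5398317. In any library 192 to 205 of the 205 member rows had at least 1 count, and every row has at least 60 counts over all libraries. Markers in sections A and E went with the ends that their letters give, while they were not read in B, C and D. These markers were chosen with earlier results of these data known, so they are no independent check of the orientation. The vegetal transcript dazl averaged 54.3 CPM (counts scaled to 1e6 per library) in A and 3114 CPM in E at 1 hpf, and the animal transcript exd2 differed by -3.90 on the log2 scale (E minus A). Of 6 markers of maternal liver, blood and ovarian follicle cells, 5 have no row, and the sixth, gsdf, averaged between 1.18 and 3.86 CPM in A and E. The germ plasm transcript dnd1 was also higher in E, by 1.71 at 1 hpf, 2.69 at 2 hpf and 2.89 at 3 hpf on the log2 scale.

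The samples numbered 3 at 1 hpf and at 3 hpf, which are separate samples, stood apart at the member rows. At 1 and 3 hpf, sample 3 differed from the mean of samples 1 and 2 by more than 1 log2 unit at 27 of the 205 member rows (13.2%), against 9.89% of all 12670 rows. The iodide transporter slc5a5 averaged 12.2 CPM over samples 1 and 2 and 0.0974 CPM over sample 3. The carrier slc45a3, of a sugar transporter family, ran the other way, with 0.696 CPM in samples 1 and 2 and 17.9 CPM in sample 3. Both were picked for their size, with the values in view.

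The 2 hpf sample 2 was mixed in this respect. Its slc5a5 level was 0.454 CPM in A, 0.628 CPM in B, 8.45 CPM in C, 12 CPM in D and 0.0 CPM in E, while all sections of sample 1 lay between 12.3 and 20.8 CPM. Its slc45a3 level was 12.6, 18, 0.148, 1.60 and 32.1 CPM in the same order. Sections A, B and E of that sample therefore had levels near those of sample 3 at the other stages, and sections C and D had levels near those of samples 1 and 2. The part of this difference in the results below was not tested beyond the fits that leave out a sample or those sections.

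Rows that share a symbol did not all differ alike between the samples: the 2 rows lay on opposite sides for 8 of the 15 symbols, 5 of them with both rows past 0.5 log2 units, and on the same side for 7. The copper importer slc31a1 averaged 122.8 ± 13.9 CPM (SD, n = 20 libraries) in samples 1 and 2 and 68.2 ± 6.12 CPM (SD, n = 10 libraries) in sample 3. Its second row, slc31a1_1, averaged 32.9 ± 6.81 CPM and 85.9 ± 8.52 CPM in the same libraries. These libraries are sections of a few samples and not separate replicates, so each SD mixes section, stage and sample spread. The libraries of sample 3 did not overlap the others on either row. The orphan carrier slc35f2 (28.3 against 12.1 CPM) and its second row (17.3 against 43.8 CPM) showed the same exchange, as did the vitamin carrier slc5a6b (8.16 against 0.890 CPM) and its second row (6.74 against 15 CPM). Both rows of slc35e3 were low in sample 3, the second averaging 21.9 CPM in samples 1 and 2 and 0.663 CPM in sample 3. Reads of near-identical copies can be divided between such rows, so values of the 15 symbols with 2 rows are uncertain.

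**Figure D1:**
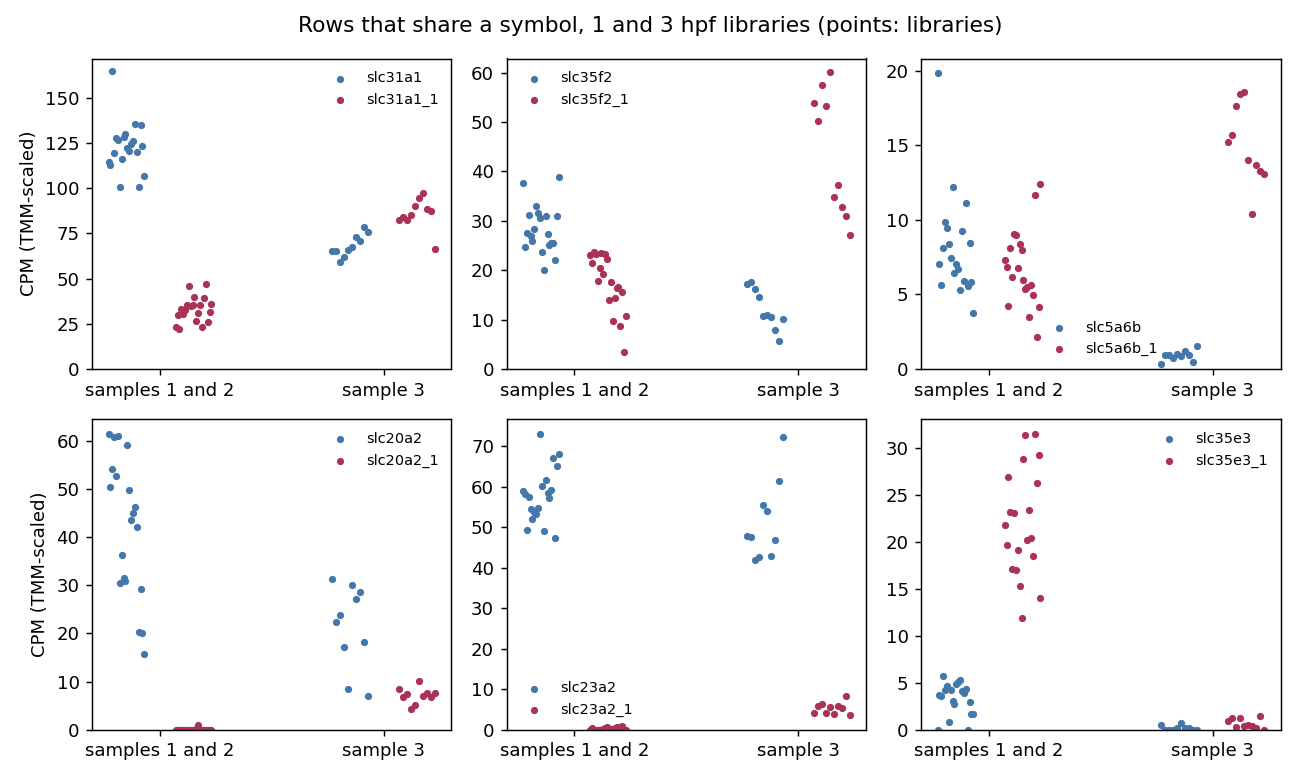
Level of both rows of 6 symbols in CPM at 1 and 3 hpf, with samples 1 and 2 at the left and sample 3 at the right of each panel and 1 point per section library, spread sideways in library order. The rows of slc31a1 stand at 122.8 and 32.9 CPM in samples 1 and 2 and at 68.2 and 85.9 CPM in sample 3.

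Taken as a whole, the solute carriers held a larger share of the counts at the vegetal end. At 1 hpf the 205 rows took 1.23 ± 0.0137% of the counts in A (SD, n = 3) and 1.66 ± 0.018% in E (SD, n = 3). In the 2 hpf samples the share was 1.18% and 1.23% in A and 1.77% and 1.86% in E. At 3 hpf it was 1.18%, 1.19% and 1.22% in A and 2.06%, 1.81% and 1.90% in E. Every E library lay above every A library at each stage, and sections B and C stayed near A with means between 1.19% and 1.25%. Section D at 3 hpf was 1.70% in sample 1 and 1.42% and 1.39% in samples 2 and 3, so 1 library stood above the other two. Shares of counts weight long transcripts. Each section was sequenced as a whole, so how its share divides between cells and yolk was not tested.

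Nearly the whole of that vegetal excess came from a handful of genes. The difference between A and E was 0.431 percentage points at 1 hpf, 0.609 at 2 hpf and 0.722 at 3 hpf. The rows slc4a2b, slc12a2, slc38a7, slc7a6 and slc25a25a, picked after their values were seen, made up 99.2%, 101% and 97.6% of it. The other 200 rows together took 1.09% of the counts in both A and E at 1 hpf, 1.08% and 1.07% at 2 hpf, and 1.06% and 1.08% at 3 hpf.

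**Figure D2:**
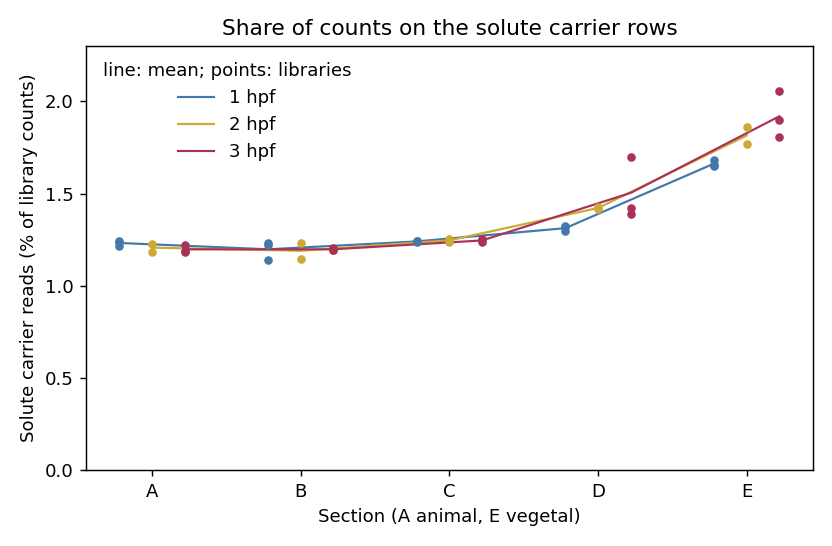
Share of each library's counts on the 205 solute carrier rows in percent, by section from A (animal) to E (vegetal), with lines through the stage means and 1 point per library. Means lie between 1.19% and 1.25% in sections A to C and reach 1.66%, 1.82% and 1.92% in E at 1, 2 and 3 hpf.

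Within each stage the 5 sections were compared with edgeR's quasi-likelihood test over all genes, with the replicate number as a block and a Benjamini-Hochberg adjusted p under 0.05 as the threshold. Any difference among the sections was found for 28 of 205 member rows at 1 hpf, where 11.5% of all tested genes passed. The count was 19 of 205 at 2 hpf against 6.49% of all genes, and 28 of 204 at 3 hpf against 12% of all genes, where slc24a4b was too low to be tested. As shares of the members these were 13.7%, 9.27% and 13.7%. Section E had the highest mean for 23 of the 28, 17 of the 19 and 24 of the 28. The same count was not made over all genes that passed, so it is not shown to be particular to the members.

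The ends of the axis were then compared directly. At 1 hpf 26 members were higher in E (12.7%, against 6.76% of all genes) and 7 were higher in A (3.41%, against 6.34%). At 2 hpf 18 members were higher in E (8.78%, against 5.12%) and 3 in A (1.46%, against 4.87%). At 3 hpf 25 were higher in E (12.3%, against 8.1%) and 7 in A (3.43%, against 7.49%). The median member differed by 0.087, 0.056 and 0.092 on the log2 scale at the 3 stages, against medians of -0.0030, 0.016 and -0.016 over all genes. With library totals in place of TMM factors the member medians changed sign to -0.05, -0.10 and -0.12, beside -0.14, -0.14 and -0.22 over all genes, and the members higher in E and in A became 20 and 13, 18 and 6, and 20 and 15. Under the same scaling the counts over all genes were 684 and 1699 (5.43% and 13.5%), 538 and 1003 (4.27% and 7.96%), and 721 and 2346 (5.71% and 18.6%).

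Large differences were counted as adjusted p under 0.05 with more than 1 log2 unit. Such members higher in E numbered 12 at 1 hpf (5.85%, against 3.18% of all genes), 14 at 2 hpf (6.83%, against 3.42%) and 17 at 3 hpf (8.33%, against 4.25%). On the animal side there were 4 (1.95%, against 1.42%), 3 (1.46%, against 1.65%) and 5 (2.45%, against 2.3%).

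Across the stages 41 of the 204 members tested throughout passed at 1 stage or more (20.7% of all genes did), 30 of them toward E (10.2% of all genes) and 11 toward A (10.5% of all genes). In opposite directions at different stages 0 members passed, against 0.0398% of all genes. A group of 17 was higher in E at all 3 stages, which is 8.33% of the members tested throughout against 4.11% of all genes. With classes set by family number, this group held 5 rows of amino acids, 5 of inorganic ions and 3 of metals. The others were 2 of the mitochondrial family and 1 each of nucleotide sugars and lipids. In all 17 the E and A libraries did not overlap at any stage, and E had the highest mean of the 5 sections. The lack of overlap largely follows from choosing the 17 by that contrast in the same libraries, and it was not counted over all genes. The median ratio of E to A, raised by the same choice, was 2.48, 2.87 and 2.94 at the 3 stages. That of D to A was 1.33, 1.70 and 1.95. Higher in A at all 3 stages were 2 members, slc39a6 and slc6a6b (0.98%, against 2.92% of all genes).

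**Figure D3:**
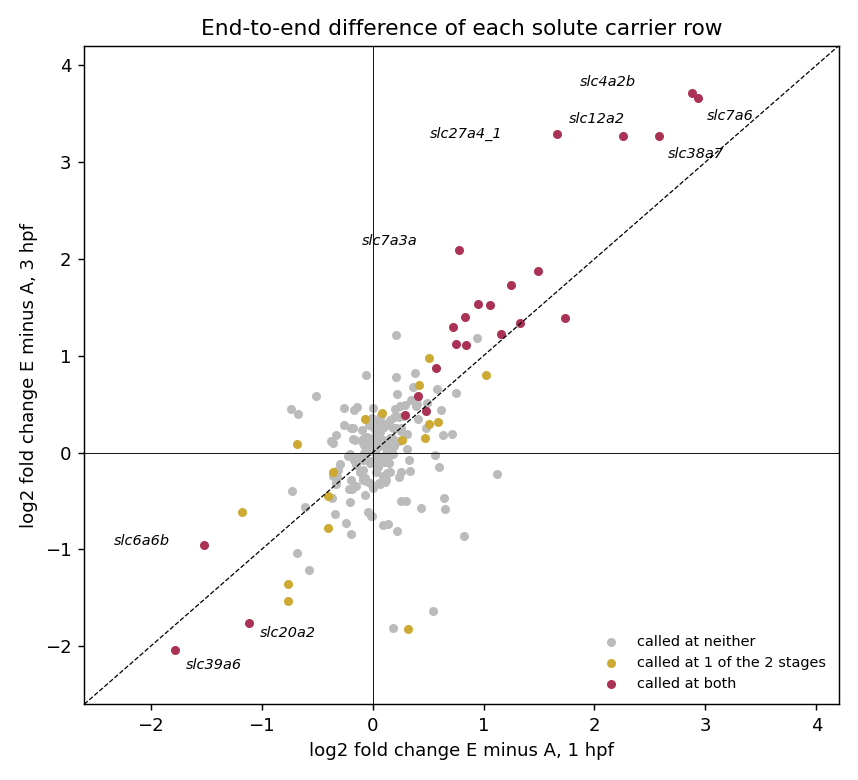
Difference between sections E and A (log2 fold change, E minus A) of each solute carrier row at 1 hpf (x axis) and 3 hpf (y axis), coloured by the number of those stages at which it passed an adjusted p of 0.05. The points slc4a2b, slc7a6, slc38a7 and slc12a2 lie at the upper right, and slc39a6, at -1.78 and -2.04, lies at the lower left.

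Carriers of inorganic ions gave 5 of the 17 transcripts that were vegetal throughout. Of 36 rows, 7 were higher in E and 1 in A at 1 hpf, 5 and 0 at 2 hpf, and 7 and 2 of the 35 tested at 3 hpf. Toward E these are 19.4%, 13.9% and 20% of the class, against 6.76%, 5.12% and 8.1% of all genes, and toward A 2.78%, 0% and 5.71%, against 6.34%, 4.87% and 7.49%. The class median was 0.11, 0.06 and 0.14 on the log2 scale.

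The chloride-bicarbonate exchanger slc4a2b, which exports bicarbonate and lowers cell pH in exchange for chloride, was at 272, 264 and 187 CPM in A and at 1461, 1866 and 1899 CPM in E of the 1 hpf samples. The 2 hpf samples had 232 and 227 CPM in A and 2363 and 2711 CPM in E. At 3 hpf it was at 274, 239 and 232 CPM in A, 2260, 1186 and 953 CPM in D and 3836, 2746 and 3253 CPM in E. The E libraries lay far above the A libraries at each stage, and at 3 hpf section D lay well above A too, most of all in sample 1. The log2 value of E minus A came to 2.88 ± 0.12 (SE, adjusted p = 4.9e-14) at 1 hpf, 3.46 ± 0.13 (adjusted p = 4.1e-07) at 2 hpf and 3.71 ± 0.15 (adjusted p = 3.6e-13) at 3 hpf.

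The sodium-potassium-chloride cotransporter slc12a2, which loads cells with chloride and swells them, was at 275, 253 and 155 CPM in A and 1054, 1219 and 909 CPM in E at 1 hpf. At 2 hpf it was at 248 and 188 CPM in A and 1546 and 1377 CPM in E. At 3 hpf it was at 235, 234 and 171 CPM in A and 2820, 1989 and 1557 CPM in E. All E libraries were above all A libraries, and the difference was 2.26 ± 0.09, 2.74 ± 0.16 and 3.27 ± 0.13 on the log2 scale (SE, adjusted p = 4.9e-14, 4.5e-06 and 3.6e-13).

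The potassium-chloride cotransporter slc12a7a, whose family lets chloride and water leave the cell and so runs opposite to slc12a2, was vegetal too. It was at 54.2, 60.4 and 65.0 CPM in A and 172, 209 and 141 CPM in E at 1 hpf, and at 74.7, 60.5 and 65.0 CPM in A and 343, 218 and 197 CPM in E at 3 hpf. On the log2 scale E minus A was 1.49 ± 0.13, 2.06 ± 0.17 and 1.88 ± 0.14 at the 3 stages (SE, adjusted p = 1.6e-08, 5.4e-05 and 5.3e-10), so carriers of both directions shared the vegetal end. The family member slc12a9 (1.06, 0.94 and 1.52) and the sodium-proton exchanger of the Golgi, slc9a8 (1.16, 1.43 and 1.23), completed the 5. The sodium-proton exchanger slc9a2 passed at 1 hpf only, at 0.51 ± 0.17 (adjusted p = 0.044), and slc26a5, prestin of the anion exchanger family, passed at 1 and 3 hpf with 0.57 and 0.87.

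On the animal side of this class stood the phosphate importer slc20a2. It was at 61.5, 50.5 and 31.2 CPM in A and 31.5, 30.9 and 8.37 CPM in E at 1 hpf, and at 59.2, 49.8 and 30.2 CPM in A and 20.0, 15.6 and 7.03 CPM in E at 3 hpf. Within every sample A was above E, although at 1 hpf the lowest A library, from sample 3, lay just under the highest E library. The log2 difference was -1.11 ± 0.18 (adjusted p = 5.9e-05) at 1 hpf, -1.18 ± 0.56 (adjusted p = 0.28) at 2 hpf and -1.76 ± 0.22 (adjusted p = 2.7e-06) at 3 hpf, and without the replicate block it was -1.01 with an adjusted p of 0.398 at 1 hpf. This symbol has 2 rows. The sodium-calcium exchanger slc8a4a passed at 3 hpf only, at -1.82 ± 0.62 (adjusted p = 0.049). It is a low row, with means of 3.45 CPM in samples 1 and 2 and 3.16 CPM in sample 3 over 1 and 3 hpf. This call was not followed through the alternative fits.

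The amino acid families gave another 5 of the 17. Of their 30 rows, 6, 5 and 8 were higher in E at 1, 2 and 3 hpf (20%, 16.7% and 26.7%, against 6.76%, 5.12% and 8.1% of all genes), and 1 was higher in A at each stage (3.33%). The 8 at 3 hpf include slc7a6os, which is no carrier. The class median was 0.13, -0.05 and 0.12 on the log2 scale, so most of the class did not share the difference of its leading members.

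The lysosomal glutamine exporter slc38a7 was at 149, 159 and 131 CPM in A and 742, 936 and 944 CPM in E at 1 hpf. The 2 hpf samples had 143 and 142 CPM in A and 1108 and 1636 CPM in E, while the 3 hpf samples had 188, 175 and 143 CPM in A and 1885, 1295 and 1740 CPM in E. No E library overlapped an A library. The log2 value of E minus A came to 2.58 ± 0.13, 3.24 ± 0.15 and 3.27 ± 0.16 (SE, adjusted p = 6.2e-13, 1.6e-06 and 1.3e-12).

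The exchanger slc7a6, which swaps cationic for neutral amino acids at the plasma membrane, was at 134, 80.9 and 49.8 CPM in A and 613, 576 and 662 CPM in E at 1 hpf. At 2 hpf it was at 58.5 and 65.0 CPM in A and 755 and 1070.2 CPM in E, while the 3 hpf samples had 83.5, 69.2 and 71.2 CPM in A and 981, 709 and 1130.5 CPM in E. At 3 hpf the level stepped up from each section to the next, from A to E, in every sample, and A and E were apart at all stages. On the log2 scale E minus A was 2.94 ± 0.20, 3.86 ± 0.17 and 3.66 ± 0.16 (SE, adjusted p = 1.1e-10, 8.9e-07 and 3.9e-13). The neighbouring gene slc7a6os lies within 2 bases of slc7a6, without overlap, in the RefSeq table of another assembly (GRCz12tu). It differed by -0.06 at 1 hpf, 0.15 at 2 hpf and 0.34 ± 0.10 at 3 hpf (adjusted p = 0.028). The last call was lost with library totals (0.13, adjusted p = 0.376), without the replicate block and without sample 1 or sample 3. Whether reads of slc7a6 were counted on the slc7a6os row was not tested.

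The cationic amino acid importer slc7a3a, which takes up arginine and lysine, had its highest mean in E at every stage. It was at 29.1, 35.4 and 34.8 CPM in A and 47.5, 66.9 and 58.0 CPM in E at 1 hpf, at 27.2 and 44.3 CPM in A and 79.7 and 109 CPM in E at 2 hpf, and at 32.6, 28.5 and 61.0 CPM in A and 227, 136 and 143 CPM in E at 3 hpf. Section D at 3 hpf was still at 54.8, 33 and 51.6 CPM, within the range of A. The log2 difference was 0.78 ± 0.17, 1.41 ± 0.17 and 2.09 ± 0.23 (SE, adjusted p = 0.0016, 0.00054 and 3.1e-07).

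The lysosomal arginine sensor slc38a9, which passes amino acid supply on to the growth kinase mTORC1, differed by 1.25 ± 0.11, 1.48 ± 0.18 and 1.73 ± 0.13. Its relative slc38a10 differed by 0.84 ± 0.11, 1.27 ± 0.15 and 1.11 ± 0.13. The family member slc7a4 passed at 1 and 3 hpf with 0.41 and 0.59, and slc66a2 passed at 3 hpf with 0.97 ± 0.30. The neutral amino acid exchanger slc1a5 did not pass at any stage, with 0.10, -0.12 and -0.10.

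The taurine importer slc6a6b was the animal-side exception among the amino acid carriers. It was at 95.9, 62.5 and 66.8 CPM in A and 26.5, 15.6 and 31.4 CPM in E at 1 hpf. The 2 hpf samples had 81.5 and 52.9 CPM in A and 31.5 and 35.2 CPM in E, while the 3 hpf samples had 59.7, 58.5 and 90.7 CPM in A and 24.2, 23.2 and 62.8 CPM in E. A and E did not overlap at 1 and 2 hpf but did at 3 hpf, where the E library of sample 3 lay above the A libraries of samples 1 and 2. The log2 value of E minus A came to -1.52 ± 0.22, -1.03 ± 0.20 and -0.95 ± 0.19 (SE, adjusted p = 1.3e-05, 0.011 and 0.00087), and at 3 hpf it lost the call without the replicate block (-0.91, adjusted p = 0.168). At 2 hpf it was -0.59 with an adjusted p of 0.424 without sample 1.

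**Figure D4:**
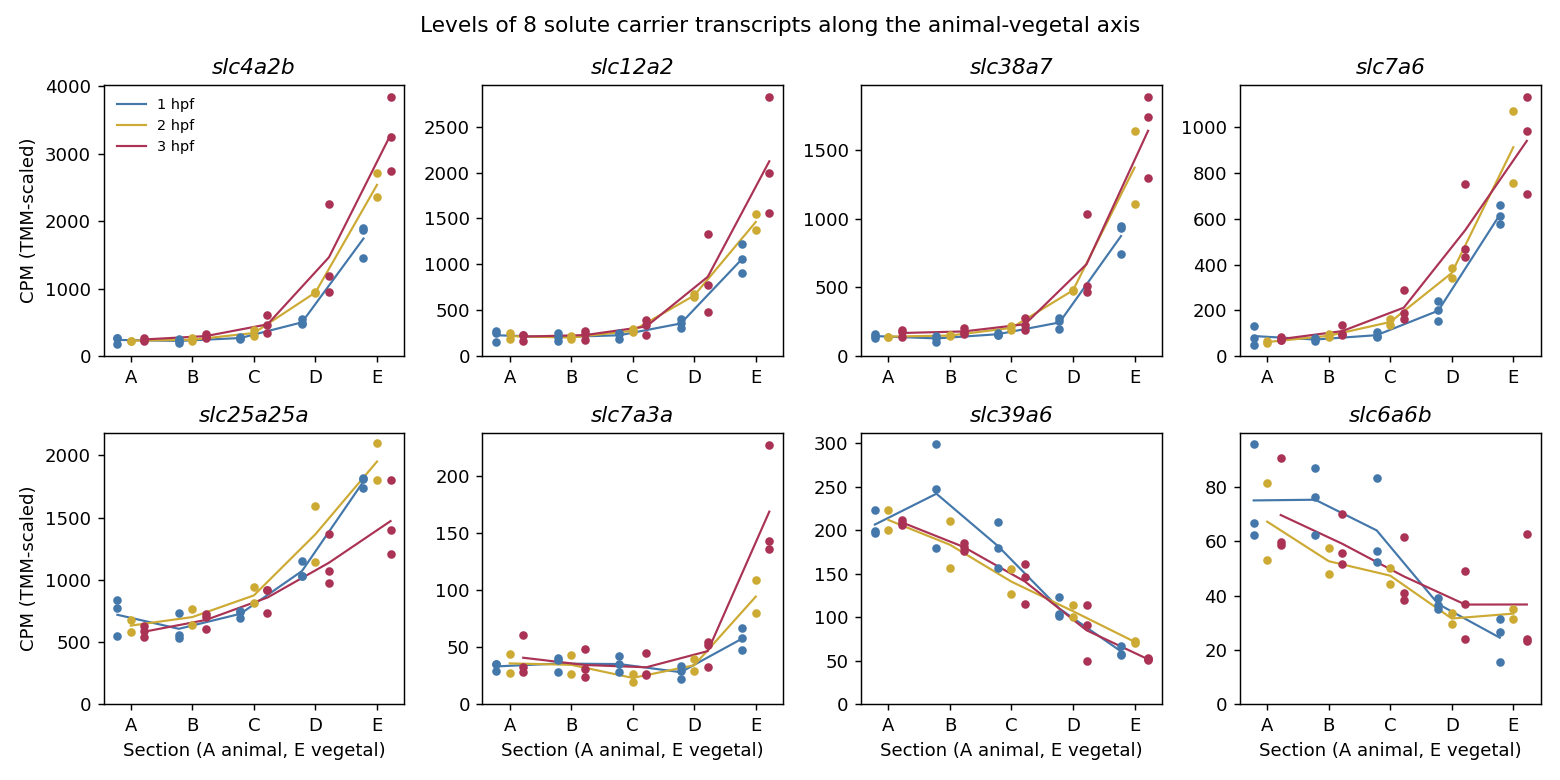
Level of 8 solute carrier transcripts in CPM by section, with lines through the stage means and 1 point per library. The 6 vegetal transcripts have their highest mean in E, where slc4a2b reaches 3836 CPM, and slc7a3a is the one whose D level stays near A, while slc39a6 and slc6a6b are lower in D and E than in A.

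Of 28 rows for carriers of metals, 5, 4 and 5 were higher in E (17.9%, 14.3% and 17.9%, against 6.76%, 5.12% and 8.1% of all genes) and 2, 1 and 1 higher in A at the 3 stages (7.14%, 3.57% and 3.57%, against 6.34%, 4.87% and 7.49%), with class medians of 0.11, -0.02 and -0.02 on the log2 scale.

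The zinc importer slc39a6, of the ZIP family that brings zinc into the cytoplasm, was at 197, 224 and 199 CPM in A and 57.1, 67.2 and 58.2 CPM in E at 1 hpf. At 2 hpf it was at 224 and 199.9 CPM in A and 70.9 and 72.7 CPM in E, while the 3 hpf samples had 207, 209 and 212 CPM in A and 51.7, 50.7 and 52.7 CPM in E. All A libraries were above all E libraries at every stage, and the level declined through C and D. On the log2 scale E minus A was -1.78 ± 0.13, -1.58 ± 0.16 and -2.04 ± 0.17 (SE, adjusted p = 2.8e-10, 0.00019 and 7.5e-09).

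Of the 18 zinc carrier rows of families 30 and 39, 3 were higher in E at 1 stage or more. The share over all genes was 10.2%. The row slc39a6 was the 1 higher in A, where 10.5% of all genes were, and 14 passed at no stage. Among those 14 was the plasma membrane zinc exporter slc30a1a, with 0.48, -0.73 and 0.25. The Golgi ZIP carrier slc39a13 was higher in E by 0.48, 0.64 and 0.43 at the 3 stages, slc39a10 by 0.75 ± 0.11 at 1 hpf and 1.12 ± 0.18 at 3 hpf, and the zinc exporter slc30a4, which loads zinc into vesicles, by 0.73 ± 0.15 at 2 hpf and 0.70 ± 0.12 at 3 hpf. The haem transporter slc48a1b, which moves haem out of lysosomes, was higher in E by 0.95 ± 0.13, 1.48 ± 0.19 and 1.54 ± 0.16. Its fellow in the same class, slc49a4, placed there by its family number, was higher by 0.73, 0.74 and 1.30, and slc49a3 passed at 1 hpf with 1.02 ± 0.32. The iron importer slc11a2 was higher in A at 1 hpf only, by -0.36 ± 0.11 (E minus A, adjusted p = 0.041), and lost the call without sample 1 or 2 and without the replicate block (adjusted p up to 0.444).

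Mitochondrial carriers, family 25, are the largest single family among the members with 35 rows. At 1 hpf 3 were higher in E and 1 in A, at 2 hpf 2 and 0, and at 3 hpf 2 and 0. Toward E these are 8.57%, 5.71% and 5.71%, near the 6.76%, 5.12% and 8.1% of all genes, with class medians of -0.03, -0.08 and -0.01 on the log2 scale. The largest difference in the family at 1 and 2 hpf was that of slc25a25a, the calcium-regulated carrier that exchanges ATP-magnesium for phosphate and so sets the adenine nucleotide pool of the mitochondrion. It was at 775, 836 and 545 CPM in A and 1739, 1819 and 1812 CPM in E at 1 hpf, at 584 and 680.0 CPM in A and 1798 and 2101 CPM in E at 2 hpf, and at 587, 625 and 538 CPM in A and 1403, 1206 and 1805 CPM in E at 3 hpf. Every E library lay above every A library, and the mean of D lay between them. The log2 difference was 1.33 ± 0.11, 1.61 ± 0.19 and 1.34 ± 0.13 (SE, adjusted p = 2.0e-09, 0.00044 and 7.6e-08).

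Of the same family, slc25a46, which sits in the outer membrane and acts in mitochondrial shape, was higher in E by 0.83 ± 0.19, 1.11 ± 0.24 and 1.40 ± 0.25. The citrate carrier slc25a1a was higher in E at 1 hpf alone, by 0.27 ± 0.08 (adjusted p = 0.036). The mitochondrial NAD importer slc25a51b was higher in A at 1 hpf, by -0.68 ± 0.12 (E minus A, adjusted p = 0.00031), and stood at 0.09 ± 0.19 at 3 hpf. The ATP-ADP exchanger slc25a5 did not pass at any stage, with 0.06, 0.16 and 0.06.

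Nucleotide sugar and Golgi carriers, which bring activated sugars and sulphate donors into the Golgi for glycosylation, counted 2, 1 and 1 rows higher in E (7.14%, 3.57% and 3.57%) and 0, 1 and 1 higher in A of 28, at or below the shares of all genes except toward E at 1 hpf (6.76%). The vegetal one at every stage was slc35a5, with 1.74 ± 0.20, 2.29 ± 0.22 and 1.39 ± 0.28. The carrier slc35e1 passed at 1 hpf with 0.59 ± 0.11, and slc35b1, the nucleotide carrier of the endoplasmic reticulum, passed at no stage, with -0.07, -0.01 and -0.26. On the animal side was slc35b3, which carries the sulphate donor PAPS into the Golgi. Its level at 3 hpf was 21.6, 22.5 and 27.7 CPM in A and 0.834, 13.5 and 9.54 CPM in E, with no overlap and sample 1 lowest in E. The log2 value of E minus A came to -0.77 ± 0.29 (not past the threshold) at 1 hpf, -1.32 ± 0.32 (adjusted p = 0.03) at 2 hpf and -1.53 ± 0.37 (adjusted p = 0.0052) at 3 hpf, and at 3 hpf the call was lost without the replicate block and without sample 3 (adjusted p = 0.0906 and 0.09). The 2 hpf call was lost without sample 1 (adjusted p = 0.233), without sample 2 (adjusted p = 0.182) and without section E of sample 2 (adjusted p = 0.131).

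Carriers of sugars and carboxylates, 22 rows, had 2, 0 and 1 higher in E (9.09%, 0% and 4.55%, against 6.76%, 5.12% and 8.1% of all genes) and 0 in A at each stage. The monocarboxylate carrier slc16a3b, which exports lactate from glycolytic cells, was higher in E by 0.29 ± 0.07 at 1 hpf and 0.39 ± 0.09 at 3 hpf, and slc5a6a, the sodium-coupled vitamin carrier that falls in this family, by 0.47 ± 0.13 at 1 hpf. The glucose carriers slc2a1a and slc2a1b have no row, and neither have slc3a2a, slc3a2b, slc7a5, slc16a1a, slc20a1a and slc6a8.

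Among the 23 rows for vitamins, nucleosides, lipids and organic ions, 1 was higher in E at each stage (4.35%, below the share of all genes) and 1, 0 and 2 were higher in A (4.35%, 0% and 8.7%, against 6.34%, 4.87% and 7.49%). The vegetal one was slc27a4_1, a row of the fatty acid carrier slc27a4, which activates long-chain fatty acids as it imports them. It was at 5.29, 2.90 and 1.94 CPM in A and 9.56, 10.4 and 7.76 CPM in E at 1 hpf, and at 1.98, 2.45 and 1.77 CPM in A and 38.4, 13.5 and 15.1 CPM in E at 3 hpf. E lay above A at both stages, with sample 1 far above the others in E at 3 hpf. On the log2 scale E minus A was 1.66 ± 0.38, 2.01 ± 0.47 and 3.29 ± 0.51 (SE, adjusted p = 0.003, 0.026 and 5.2e-05). At these low levels the 1 hpf call was lost without sample 2 or 3 (adjusted p = 0.111 and 0.104), and the 2 hpf call without the block or without either sample (adjusted p between 0.0634 and 0.141).

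The choline carrier family member slc44a4 was higher in A at 3 hpf, by -1.36 ± 0.41 (E minus A, adjusted p = 0.026), which was lost without the block and without any 1 sample (adjusted p between 0.0702 and 0.216). The fatty acid carrier slc27a1a, at -0.78 ± 0.26 at 3 hpf, lay at the threshold (adjusted p = 0.0497) and lost the call when its 2 rows were summed (-0.26, adjusted p = 0.413). The organic ion carrier slc22a23 was higher in A at 1 hpf by -0.40 ± 0.13, lost without sample 2 or 3 and without the block (adjusted p between 0.278 and 0.495). Of the 3 vesicle and lysosome rows, slc18b1, a polyamine carrier of vesicles, was higher in A at 1 hpf by -1.18 ± 0.39 (adjusted p = 0.049). Its means were low, at 5.26 CPM in samples 1 and 2 and 4.19 CPM in sample 3 over 1 and 3 hpf. The slc18b1 call was not followed through the alternative fits.

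The difference between the ends grew from 1 to 3 hpf for a few members. In an interaction test over all 40 libraries, with each sample as a block, 3 members moved toward E (0.324% of all genes did) and 0 toward A (0.371% of all genes), with 17 toward E and 5 toward A at an unadjusted p under 0.05 (5.68% and 5.27% of all genes). DESeq2 found 4 and 0, beside 98 and 78 of all genes. The difference of slc12a2 grew by 1.03 ± 0.18 log2 units (SE, adjusted p = 0.0036), that of slc7a3a by 1.32 ± 0.30 (adjusted p = 0.030) and that of slc4a2b by 0.85 ± 0.20 (adjusted p = 0.039). As the values above show, the A levels of slc12a2 and slc4a2b stayed in a similar range while E was higher at 3 hpf. For slc7a3a E was higher at 3 hpf too, but the 3 hpf A library of sample 3 lay above all 1 hpf A libraries. For slc4a2b the call was lost without section A of 1 hpf sample 1 (0.71, adjusted p = 0.169), without replicate 1 (0.60, adjusted p = 0.256) and without replicate 2 (0.90, adjusted p = 0.221), and slc7a3a lost it under the same changes (adjusted p = 0.0708, 0.204 and 0.237). None of the 3 passed without the sample block (adjusted p between 0.376 and 0.405). The other leading vegetal transcripts did not pass this test, slc7a6 with 0.75 ± 0.28 (adjusted p = 0.26), slc38a7 with 0.70 ± 0.22 (adjusted p = 0.154) and slc25a25a with 0.01 ± 0.21 (adjusted p = 0.989).

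The counts of the 5 sections of each sample were added, and 3 hpf was compared with 1 hpf. Such a sum weights each section by its sequencing depth and is not a whole-embryo level. Section E held 3487492 to 5296971 counts at 1 hpf and 1355607 to 2327972 at 3 hpf, so E weighed less in the 3 hpf sums. With every section weighted equally, 4 members were lower and 3 higher at 3 hpf, beside 176 and 87 of all genes. The counts that follow are those of the plain sums. Of the members 5 were lower at 3 hpf (1.37% of all genes were) and 0 were higher (0.379% of all genes), and DESeq2 called 8 lower and 3 higher (3.96% and 1.49%, against 4.58% and 2.66% of all genes). At an unadjusted p under 0.05 there were 16 lower and 9 higher (7.8% and 4.39%, against 9.01% and 5.59% of all genes).

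The mitochondrial glutathione carrier slc25a39, which keeps the antioxidant glutathione supplied inside the mitochondrion, was at 232, 272 and 254 CPM at 1 hpf, 209.8 and 215 CPM at 2 hpf and 122, 159.7 and 165 CPM at 3 hpf. The 3 hpf samples lay below all earlier ones. Here and for the carriers below, lying under the 1 hpf samples largely follows from choosing genes by that contrast in the same samples. Such separation was not counted over all genes. The log2 change was -0.76 ± 0.12 (SE, adjusted p = 0.033).

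The sodium-bicarbonate importer slc4a7 was at 282, 303 and 258 CPM at 1 hpf, 257 and 264 CPM at 2 hpf and 170.4, 192 and 189 CPM at 3 hpf, again without overlap. Its change was -0.61 ± 0.07 (adjusted p = 0.018). In the sections slc4a7 did not differ between the ends at 1 and 2 hpf (0.09 and 0.04) and passed at 3 hpf with 0.40 ± 0.11. That call was lost with library totals (0.19, adjusted p = 0.216), without the replicate block and without sample 1 or sample 3.

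The pyrimidine nucleotide carrier slc25a36b was at 95.0, 106 and 98.3 CPM at 1 hpf. It was at 92.3 and 89.7 CPM at 2 hpf and 70.4, 73.7 and 57.9 CPM at 3 hpf (-0.57 ± 0.10, adjusted p = 0.043). The nucleotide sugar carrier slc35d1a was at 19.9, 15.8 and 17.2 CPM at 1 hpf, 21.1 and 18.4 CPM at 2 hpf and 10.4, 10.8 and 10.8 CPM at 3 hpf (-0.73 ± 0.12, adjusted p = 0.043). For both, the 3 hpf samples lay below all others, and slc35d1a lost the call with every section weighted equally (-0.61, adjusted p = 0.0767) and without replicate 3 (adjusted p = 0.0805). The fifth, slc7a6os, is no carrier and fell by 0.36 on the log2 scale (adjusted p = 0.035), a call lost without replicate 1, 2 or 3.

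**Figure D5:**
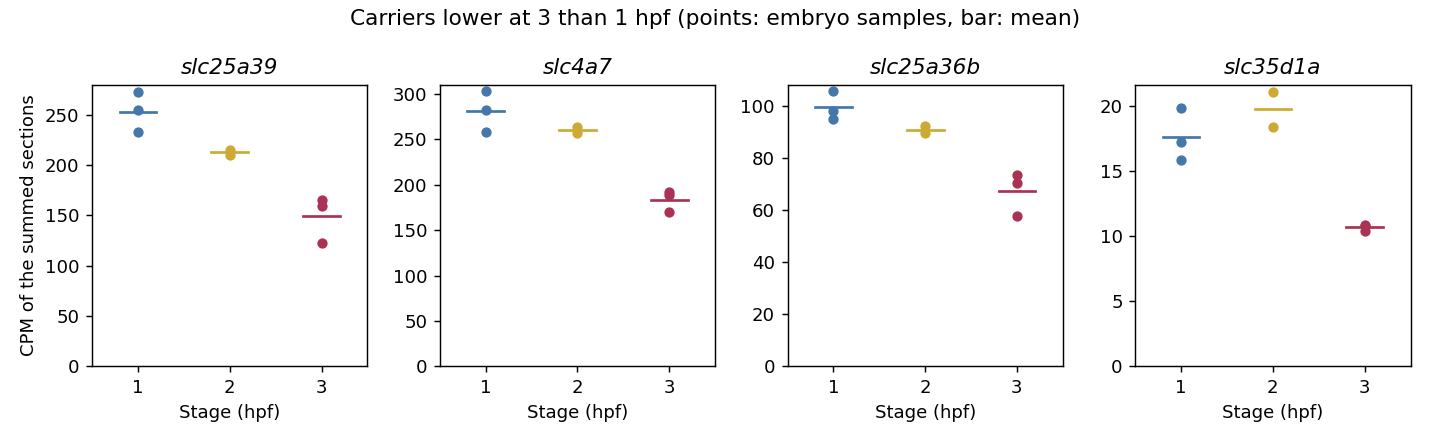
Level of 4 carriers in CPM of the 5 summed sections at 1, 2 and 3 hpf, with 1 point per embryo sample and a bar at the mean. In each panel the 3 hpf samples lie below those of 1 and 2 hpf. The carriers were chosen by the test of 3 against 1 hpf on these samples. The level of slc25a39 is 122 to 165 CPM at 3 hpf and 232 to 272 CPM at 1 hpf.

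Across stages sample 3 correlated with sample 3 (0.915). Samples 1 and 2 correlated as strongly across numbers (0.75 and 0.73) as within them (0.739 and 0.716), so pairing by number was seen for sample 3 only. The fit with the replicate number as a block changed the counts. It called 11 members lower and 4 higher at 3 hpf, which is 5.37% and 1.95% of the members against 4.52% and 1.8% of all genes. The 4 were slc4a2b (0.45, adjusted p = 0.012), slc38a7 (0.43, adjusted p = 0.0071), slc7a6 (0.42, adjusted p = 0.0053) and slc12a2 (0.35, adjusted p = 0.025), which are also 4 of the 5 leading vegetal transcripts. Without replicate 1 or without replicate 2, 0 members were called lower, and 0 of all genes.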

How the data were processed

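RNA of 5 sections of zebrafish embryos at 1, 2 and 3 hpf was sequenced from libraries that keep strand, after ribosomal RNA depletion, per the labels' protocols. The deposited table holds whole-number read counts per gene as the authors made them, not normalised. The submitters' processing notes name the build GRCz11 and the tools HTSeq 2.0.4, STAR 2.7.11, DESeq2 and fastp 0.23.4, while the annotation and the strand setting of the counting are not given in the sources used here. Gene rows with few counts were absent, so each row has at least 60 counts. No sequence or coordinate is given, and 187 of 190 member symbols were found in the RefSeq table.

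Counts were tested with edgeR 4.0.16 in R 4.3.3 (quasi-likelihood test, TMM factors, filterByExpr, Benjamini-Hochberg adjustment at 0.05 over all genes). Levels are TMM-scaled CPM over all 40 libraries. Fits within a stage had the replicate number as a block, because the labels give sections of 1 number as slices of 1 biological replicate. The median correlation of their deviations from the section mean was 0.653 for 1 hpf, 0.0938 for 2 hpf and 0.595 for 3 hpf. Between stages the same numbers correlated at 0.739, 0.716 and 0.915, so the blocked fit of the stage comparison is printed too, although samples 1 and 2 correlated as strongly across numbers (0.75 and 0.73). The E minus A change between stages was a stage by section interaction, and stages were compared on counts summed over the 5 sections. No source states that samples came from separate matings or clutches, so the spread behind each p-value is that among these samples and may be technical.

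Members and gene lists were chosen with earlier results of these data known. Named genes are the up to 8 members per direction and comparison with the largest change among those past the threshold and at least 10 CPM in the higher group. For E against A they also had to differ the same way in every replicate, which was not asked in the comparisons between stages. Added to them were a fixed list of 15 symbols, rows that share a symbol, and others named because they passed, chosen after their values were seen. Alternatives were other size factors, library totals, no filter, DESeq2 1.42.0, other blocking, summed copies, and leaving out replicates or single libraries. The scripts were tested on simulated data.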

Additional observations from a re-analysis of the deposited data

Results flagged for a closer look

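For 3 members the difference between sections E and A was larger at 3 hpf than at 1 hpf by edgeR's test of the interaction itself. The growth on the log2 scale was 1.03 for slc12a2, the sodium-potassium-chloride cotransporter, 0.85 for slc4a2b, the chloride-bicarbonate exchanger, and 1.32 for slc7a3a, the arginine and lysine importer. Within every sample at both stages E was above A for all 3 genes. Without section A of 1 hpf sample 1 the values of slc4a2b and slc7a3a were 0.71 (adjusted p = 0.169) and 1.33 (adjusted p = 0.0708), and without replicate 2, a fit that keeps that section, they were 0.90 (adjusted p = 0.221) and 1.30 (adjusted p = 0.237).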

How the results depend on the processing

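Of 131 alternative values of the 13 member counts, 109 stayed within 1.5 times the main count. An alternative of 0 beside a main count of 0 was put among the 109, although it has no ratio. Of 538 alternative values of single genes 477 kept direction and call, 61 lost the call and 0 reversed. With library totals, members higher in A rose to 13 at 1 hpf, 6 at 2 hpf and 15 at 3 hpf. Under that scaling 1699, 1003 and 2346 of all genes were higher in A, with medians of -0.14, -0.14 and -0.22. No replicate block gave 3 higher in A at 1 hpf (414 of all genes), 3 at 3 hpf (458) and 0 shifted toward E (7). It gave 21, 17 and 18 higher in E at the 3 stages (566, 556 and 703 of all genes). The replicate block in the stage comparison gave 4 higher and 11 lower (228 and 572 of all genes). Leaving out 1 replicate gave 4 to 10 higher in A at 1 hpf, 5 at 2 hpf, 18 to 65 for any section at 2 hpf, 1 to 3 shifted toward E and 0 to 3 lower at 3 hpf. The 65 came from the fit without sample 1, in which the lone sample 2, with its unlike sections C and D, was assumed to vary like the other stages. Without those sections 7 members were higher in A and 21 in E at 2 hpf, and without section A of 1 hpf sample 1 the count shifted toward E was 1. DESeq2 gave 3 higher and 8 lower at 3 hpf (333 and 573 of all genes). Equal weight for every section, chosen after seeing the data, gave 3 higher (slc7a6, slc38a7 and slc4a2b), beside 87 of all genes. The cause of these changes was not tested. Rows under about 20 CPM, such as slc27a4_1 and slc35b3, rest on few reads in the shallow libraries.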

Other observations

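Transporters outside the solute carrier names were read from lists that were chosen with earlier results known. Chloride channels and exchangers, which work beside the chloride carriers, had 9 rows, of which 4, 3 and 4 were higher in E at 1, 2 and 3 hpf by edgeR (background 6.76%, 5.12% and 8.1%), with a median of 0.28, 0.14 and 0.25 on the log2 scale. Among the counted rows clcn3 and clcn3_1 share a symbol, and clcn5b was higher in A at 2 hpf, by -0.66 ± 0.17 (E minus A, adjusted p = 0.033). The endosomal exchanger clcn3 was higher by 1.00 ± 0.12, 1.05 ± 0.23 and 1.56 ± 0.19 (SE), and clcn5a by 1.08 ± 0.10, 1.30 ± 0.14 and 1.04 ± 0.17. The citrate exporter ankha was higher in E by 2.32 ± 0.10, 2.39 ± 0.14 and 2.45 ± 0.13, and the lysosomal carrier mfsd12a by 1.84 ± 0.11, 2.16 ± 0.21 and 2.57 ± 0.19. Their list of 40 rows under other names counted 3, 2 and 3 higher in E, near the 6.76%, 5.12% and 8.1% of all genes. The single row of it toward A, at every stage, was ankhd1 (-0.31, -0.85 and -0.56), matched by its name and no carrier.

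Several transporters ran the other way. The lipid transporter abca3b was lower in E by -2.36 ± 0.17, -2.79 ± 0.26 and -2.99 ± 0.20 (E minus A), the potassium channel kcnk6 by -1.52 ± 0.11, -1.48 ± 0.14 and -1.74 ± 0.16, and the calcium pump atp2a2b by -0.80 ± 0.06, -1.05 ± 0.13 and -0.84 ± 0.09. They were the only rows of their lists higher in A at all 3 stages, among 29, 21 and 8 rows, where 2.92% of all genes were. The list of ABC transporters also had 2, 1 and 4 of its 29 rows higher in E (against 6.76%, 5.12% and 8.1% of all genes). Among them abcd2, a peroxisomal fatty acid transporter, passed at all 3 stages (1.51, 2.15 and 1.22). The vacuolar proton pump, 21 rows, had 3, 1 and 2 higher in E (against 6.76%, 5.12% and 8.1% of all genes), and 3 of its rows (atp6ap2, atp6v0b and atp6v1h) were lower at 3 than at 1 hpf in the summed sections, by -0.73 ± 0.13, -1.11 ± 0.10 and -1.04 ± 0.17, with a list median of -0.53, where 1.37% of all genes were called lower. Aquaporins had 0 rows in the table.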
